A study of Mus musculus with 16 samples.

Results

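A set of 3188 regions of open chromatin was listed in every mouse embryonic stem cell (ESC) library that lacked p53 and kept a functional WDR5, and in no other ESC library of the study. The members were chosen by the deposited peak lists themselves. Peaks of the 12 ESC lists on chromosomes 1 to 19, X and Y were merged into 52480 regions wherever they overlapped by at least 1 bp, and a region was kept when all 6 lists from p53-null, WDR5-competent cells had a peak in it and none of the 6 other lists did. Members made up 6.07% of all merged regions and 18.3% of the 17428 regions found in all 6 lists. Their presence in the 6 lists and absence from the others is therefore a description and has no test.

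ATAC-seq marks open DNA by where a transposase can insert adapters, and all cells derived from Rx:GFP knock-in ESCs kept in 2i with LIF. The 6 lists required to hold a member came from p53 knockout clone C9, p53 knockout clone H9, and Wdr5 and p53 double knockout cells carrying a stable plasmid with wild-type human WDR5 (called WDR5WT here), with 2 libraries each. The 6 lists required to lack it came from parental cells, which have p53 and Wdr5, from double knockout cells with the empty backbone plasmid, and from double knockout cells with WDR5 carrying the S91K-Y191F changes, also with 2 libraries each. C9 and H9 are 1 clone each, so what belongs to a clone and what belongs to the p53 knockout can be compared only between these clones. Embryoid bodies, made by serum-free aggregate culture (SFEBq), were taken from parental cells (day 4 by the label) and from double knockout cells without a rescue plasmid (no day in the label), with 2 libraries each. No label states that replicates were separate cultures, so each p-value below measures only the spread between these libraries.

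p53 is a transcription factor that stops the cell cycle or triggers apoptosis after damage, and in ESCs it also favours differentiation. WDR5 is a WD40-repeat scaffold subunit of the MLL and SET1 complexes, which methylate lysine 4 of histone H3 at active promoters. Open regions fall mainly into promoters, which are often rich in CpG dinucleotides and open in most cell types, and distal elements such as enhancers, whose openness tends to be cell type specific.

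The promoters below are shown because they are among the strongest member regions at a transcription start in 3 embryoid body patterns, by the signal rank defined later. Each line gives the 250 bases upstream of the start, 5′ to 3′ on the gene's strand, from RefSeq (GRCm38.p6, which is mm10), with CG dinucleotides in capitals. Med12l (chr3:59006728-59006977, plus strand), C1ql3 (chr2:13010865-13011114, minus strand) and Ptgdr (chr14:44859376-44859625, minus strand) had a peak in all 4 embryoid body libraries. Shisa5 (chr9:109038317-109038566, plus strand) and Nuak1 (chr10:84440669-84440918, minus strand) had none there. Topbp1 (chr9:103305077-103305326, plus strand) had one in both parental libraries and in neither double knockout library.
Med12l: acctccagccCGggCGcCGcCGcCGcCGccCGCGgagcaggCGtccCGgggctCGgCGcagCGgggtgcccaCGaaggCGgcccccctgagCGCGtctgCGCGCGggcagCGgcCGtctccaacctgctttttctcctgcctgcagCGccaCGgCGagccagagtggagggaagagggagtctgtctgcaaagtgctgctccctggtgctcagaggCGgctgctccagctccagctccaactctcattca
C1ql3: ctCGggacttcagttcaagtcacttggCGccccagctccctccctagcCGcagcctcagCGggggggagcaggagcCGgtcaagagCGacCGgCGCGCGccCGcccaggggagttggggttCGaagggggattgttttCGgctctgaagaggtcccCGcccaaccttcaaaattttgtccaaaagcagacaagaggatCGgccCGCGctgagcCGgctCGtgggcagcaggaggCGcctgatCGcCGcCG
Ptgdr: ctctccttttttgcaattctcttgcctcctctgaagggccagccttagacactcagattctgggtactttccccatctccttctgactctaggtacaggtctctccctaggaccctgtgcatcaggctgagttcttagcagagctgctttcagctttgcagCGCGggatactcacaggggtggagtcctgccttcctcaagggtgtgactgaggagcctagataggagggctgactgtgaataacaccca
Shisa5: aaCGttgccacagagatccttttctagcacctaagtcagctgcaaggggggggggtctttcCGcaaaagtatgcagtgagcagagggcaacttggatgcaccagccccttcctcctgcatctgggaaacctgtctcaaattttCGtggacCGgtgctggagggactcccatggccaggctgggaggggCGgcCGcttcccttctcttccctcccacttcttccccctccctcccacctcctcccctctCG
Nuak1: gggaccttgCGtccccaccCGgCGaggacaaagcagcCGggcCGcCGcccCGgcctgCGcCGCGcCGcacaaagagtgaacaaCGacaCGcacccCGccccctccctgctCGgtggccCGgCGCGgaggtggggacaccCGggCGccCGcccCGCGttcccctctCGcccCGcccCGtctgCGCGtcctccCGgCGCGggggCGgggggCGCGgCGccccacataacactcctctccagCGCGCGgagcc
Topbp1: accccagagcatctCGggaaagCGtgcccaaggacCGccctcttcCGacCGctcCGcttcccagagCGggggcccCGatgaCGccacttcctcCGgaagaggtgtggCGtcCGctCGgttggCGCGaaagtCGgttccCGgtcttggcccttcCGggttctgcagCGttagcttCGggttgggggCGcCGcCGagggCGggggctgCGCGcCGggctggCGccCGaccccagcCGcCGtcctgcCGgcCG

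CG dinucleotides numbered 26 in the Med12l sequence, 23 in C1ql3, 38 in Nuak1 and 33 in Topbp1, against 7 in Shisa5 and 2 in Ptgdr. CpG-rich and CpG-poor promoters thus both occurred among the strongest members, and a CpG-rich promoter (Nuak1) occurred among those with no embryoid body peak.

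Med12l encodes a Mediator kinase module subunit related to MED12, and its promoter region (2653 bp wide) ranked highest of all members. Its deposited signal was 791 and 1921 in the C9 libraries, 2784 and 2824 in the H9 libraries, and 2040.2 and 3518 in the WDR5WT libraries. C9 replicate 1 was lowest. The signal is the authors' value per peak on a scale the sources used here do not give, and no ESC list holds a value under 200. Regions were therefore ranked within each list, as the percentage of that list's peaks with an equal or lower signal. Med12l had a median percentile of 95.9 over the 6 lists.

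C1ql3, a secreted C1q-like protein of synapses, came next, with signals of 662 and 1689 in C9, 2949 and 2659.6 in H9, and 2016 and 2786 in WDR5WT. Again C9 replicate 1 was lowest. Ptgdr, a prostaglandin D2 receptor, had the most even signals of the top regions, at 1611 and 1927 in C9, 1925 and 1655 in H9, and 1839.95 and 1881 in WDR5WT. All 6 libraries overlapped there.

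The 15 highest-ranked members lay at or nearest to Med12l, C1ql3, Ptgdr, Nr2f1, Ccser1, Maf, Slc4a4, Fam171a1, Col19a1, Iqsec3, Slc35f3, Rims1, Trim39, Pou3f4 and Tnc, with median percentiles from 95.9 (Med12l) down to 85.7 (Tnc). Several of these genes act in neurons or in neural development: Rims1 is a scaffold of the presynaptic active zone, Pou3f4 a POU-domain transcription factor, and Nr2f1 a nuclear receptor (COUP-TFI) whose nearest gene end was 10.7 kb from the region. Others encode matrix proteins (Col19a1, a collagen, and Tnc, tenascin C), a bicarbonate transporter (Slc4a4) and a leucine zipper transcription factor (Maf). Each of the 15 regions had a peak in all 4 embryoid body libraries.

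**Figure D1:**
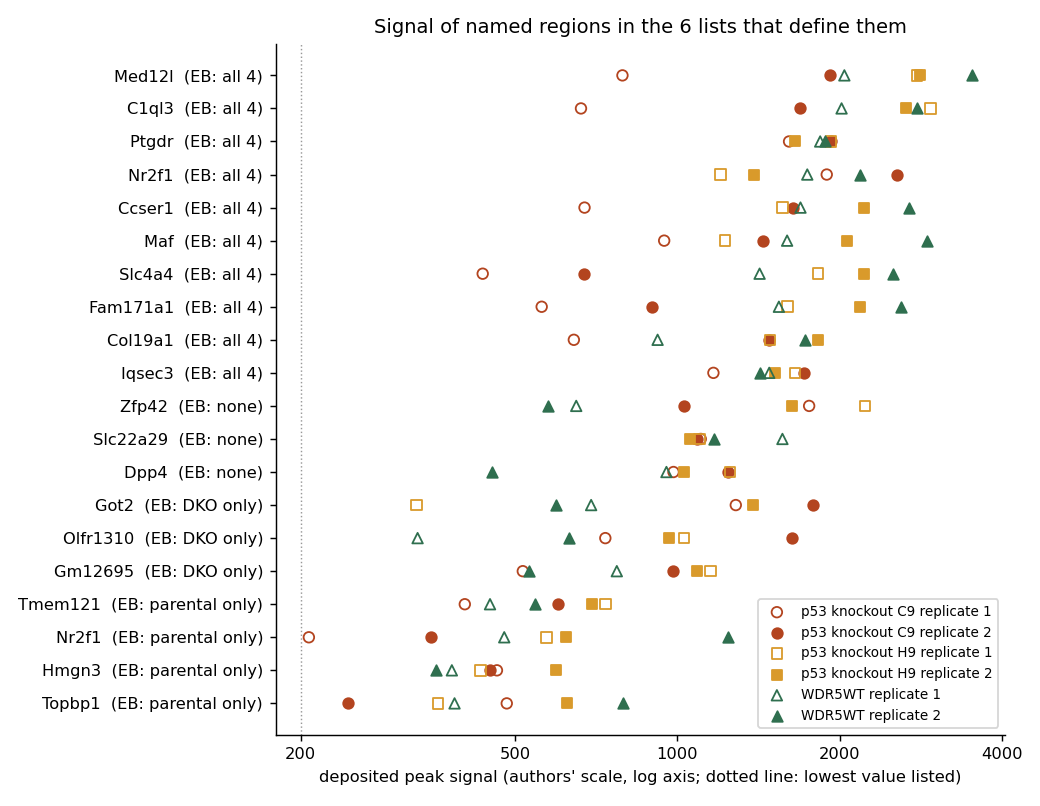
Deposited peak signal (log axis) of named member regions, labelled by nearest gene and embryoid body (EB) pattern, in the 6 libraries that define the members; open and filled symbols are replicates 1 and 2. Regions in all 4 EB libraries include the highest values (3518 at Med12l), and the 4 regions drawn that were found only in parental EBs run from 207 to 1239.7.

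Members were low to middling peaks. Their median percentile was 46.3, against 69.5 for all regions in the 6 lists and 74.6 for the 14240 regions that were also in at least 1 other list (shared regions hereafter). By library, the median percentile of member peaks was 41.0 and 53.5 in C9, 47.2 and 47.3 in H9, and 44.3 and 46.4 in WDR5WT. C9 held both the lowest and the highest value. WDR5WT minus p53 knockout libraries came to -1.91 percentile points (45.4 ± 1.43, SD, n = 2, against 47.3 ± 5.09, SD, n = 4; exact permutation test, two-sided, p = 0.6, smallest possible 0.0667). The clones differed by 0.0146 points (C9 47.3 ± 8.81, H9 47.3 ± 0.0436, SD, n = 2 each; exact permutation test, two-sided, p = 1.0, smallest possible 0.333). Neither difference exceeded the spread between libraries.

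Regions in all 6 lists had higher ranks the more of the other lists they were in. The median percentile was 46.3 for the 3188 members, 60.2 for 4260 regions in 1 other list, 73.1 for 5512 in 2, and 96.1 for the 321 regions in all 12 lists. In the bin from percentile 10 to 20, members were 63.5% of the regions in all 6 lists, and in the bin from 80 to 90 they were 2.36%.

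**Figure D2:**
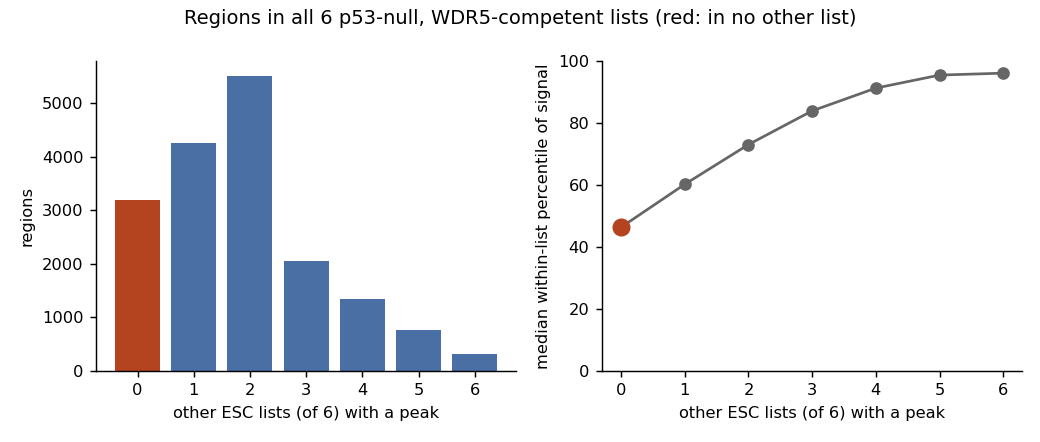
Left, number of regions in all 6 lists by how many of the 6 other ESC lists also have a peak there; right, their median within-list percentile of signal. The 3188 members (red, 0 other lists) have the lowest median, 46.3, and the 321 regions in all 12 lists the highest, 96.1.

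The lists themselves differed in length in the way the rule is split. The 6 lists required present held 26305 to 32709 peaks, and the 6 required absent held 24367 and 5330 (parental), 1535 and 2492 (backbone) and 5174 and 16257 (S91K-Y191F). The widest peak was 7727 to 15921 bp in the former and 18810 to 29214 bp in the latter, so genotype and this difference between the lists cannot be told apart. The lists give no read counts, so the depth of each library is unknown. Of 12 ESC markers (among them Nanog, Sox2, Klf4 and Zfp42), 7 to 11 had a peak at a gene end in the lists required present, 10 and 2 in the parental lists, 1 and 7 in S91K-Y191F and 1 in each backbone list. The whole fibroblast list had 3 to 4 of 10 genes with such a peak in the lists required present, with Thy1, Lum and Col3a1 at 0, and 0 to 3 in the others. Neural markers (6 genes, such as Pax6 and Sox1) had 2 to 4 in the p53 knockout lists, 6 and 5 in WDR5WT and 0 to 2 in the others, and the part of such markers in the results was not tested. Wdr5 had an end peak in WDR5WT replicate 2 and the 4 embryoid body lists only, and Trp53 in those 4 and in 5 ESC lists, both H9 lists among them; a peak at a gene end does not test a deletion elsewhere in the gene.

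Most of the exclusion came from 1 list. Of the 4260 regions just outside the rule, 3460 were shared only with parental replicate 1 (median percentile 60.6) and 791 only with S91K-Y191F replicate 2 (59.2), while the remaining lists added 1 to 6 each. Without parental replicate 1 the rule gave 6651 regions. On the other side, 2233 regions were in 5 of the 6 lists and in no other, of which C9 replicate 1 lacked 755. With the 50% of peaks of smallest p in each list the number was 1566, with every list cut to the 1535 peaks of the shortest it was 138, and with the 6 required lists cut to the 24367 peaks of parental replicate 1 it was 1756. The nearest peak of an excluded list lay a median of 35148 bp from a member, and 102 members (3.20%) had one within 1000 bp.

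Members lay mostly away from genes' ends. A region counts as at a gene end when it comes within 1000 bp of the first or last base of a protein-coding gene, because the gene table gives no strand. Of the members, 644 were at a gene end, which is 20.2% (95% exact binomial interval 18.8 to 21.6%, for counting error only), against 43.3% of the regions in all 6 lists and 48.5% of shared regions. Another 900 (28.2%) lay inside a gene away from its ends, and 1644 (51.6%) lay between genes. The median distance to a gene end was 32.2 kb for members and 1.44 kb for shared regions, and 1024 members (32.1%) were over 100 kb away, against 16.3% of shared regions. Members were also narrower than shared regions, with a median of 811 bp against 1126 bp. Over all 52480 merged ESC regions, 24.1% were at a gene end and 47.3% between genes. The median distance of all merged regions to a gene end was 19.7 kb and their median width 720 bp, less than that of members.

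Part of the difference between members and shared regions went with rank. Between percentiles 40 and 50, 15.3% of members and 29.4% of shared regions were at a gene end, and between percentiles 80 and 90 the order was the other way, at 61.8% and 55.9%. The share at gene ends was 26.5% without parental replicate 1, 33.0% with the 50% of peaks of smallest p and 83.3% of the 138 regions at equal list length.

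**Figure D3:**
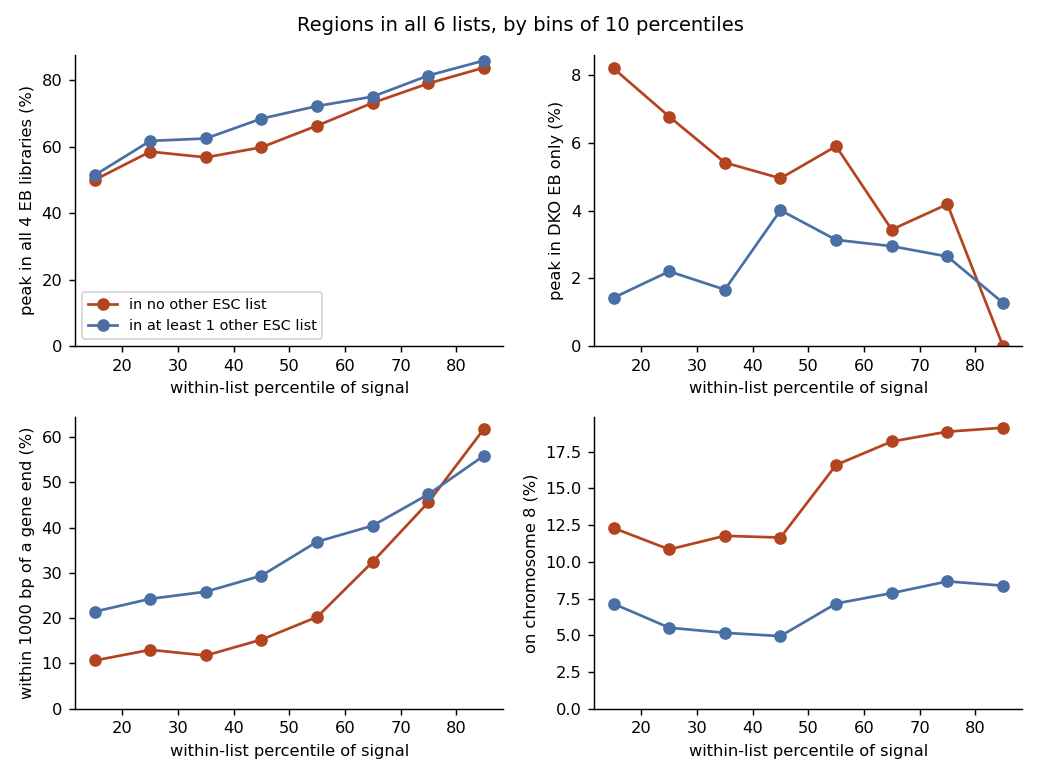
Regions in all 6 lists in bins of 10 within-list percentiles (x axis, bin centres from 15 to 85): share of members (red) and shared regions (blue) with a peak in every embryoid body (EB) library, in the 2 double knockout (DKO) EB libraries only, at a gene end, and on chromosome 8. On chromosome 8, members lie above shared regions in each of the 8 bins drawn.

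Start sites in RefSeq promoter windows (300 bases, 250 before and 50 after the start) were found in 557 member regions, covering 663 windows of 599 genes. Their median CpG ratio (observed over expected from base content) was 0.714, against 0.792 for the windows in shared regions and 0.384 for all 32851 windows, and 64.7% of member windows were over 0.6, against 79.1% and 35.8%. Member promoters were thus CpG-rich for the genome and less so than shared ones. The 626 member windows in all 4 embryoid body libraries had a median ratio of 0.724, and the 37 others 0.356.

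Short motifs were searched on both strands of the 300-base windows. The GC box, GGGCGG, to which SP and KLF factors bind, was in 63.7% of member windows, 70.6% of shared and 35.7% of all windows. The CCAAT box, CCAAT, bound by NF-Y, was in 33.5%, 42.1% and 37.4%, and an ETS site, CCGGAAG, in 15.4%, 18.8% and 8.86%. A SOX site, CATTGT, was in 8.60%, 6.06% and 12.6%. The GC box holds a CG and so moves with CpG content. A match is a description of the letters and not of binding.

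Chromosome 8 held 446 members, 14.0%, against 9.38% of the regions in all 6 lists and 8.34% of shared regions. The share was higher still, 24.9% (80 of 321), among the shared regions found in all 12 ESC lists. On this chromosome members were 27.3% of the regions in all 6 lists. The next highest shares were on chromosomes 14 (23.8%) and X (22.5%), and the lowest on chromosomes 19 (10.2%) and 11 (11.7%). This count also rested on parental replicate 1. Without that list, 8.74% of the 6651 regions were on chromosome 8. Parental replicate 1 had 6.25% of its own peaks on chromosome 8, the 6 lists required present 8.73 to 9.78%, and the 5 other excluded lists 10.4 to 28.6%; the part of this in the result was not tested.

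**Figure D4:**
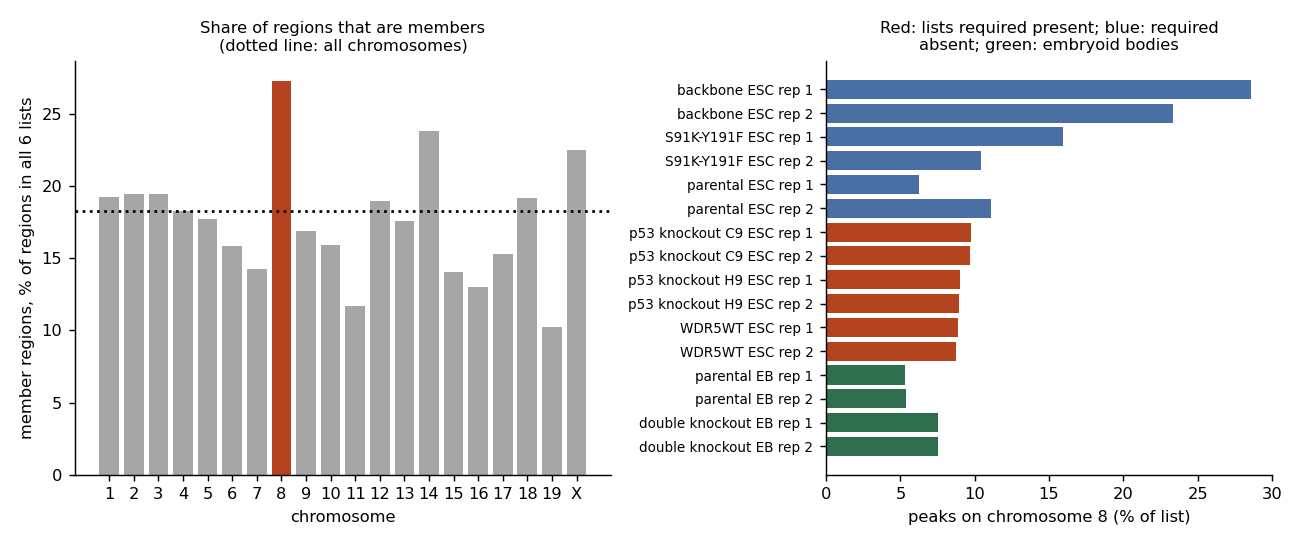
Left, members as a share of all regions in the 6 required lists on each chromosome (Y, with 1 member, not drawn); right, share of each list's peaks on chromosome 8. Chromosome 8 has the highest member share, 27.3%, and parental ESC replicate 1 has the lowest chromosome 8 share among the ESC lists, 6.25%.

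Members were also counted in windows of 1 Mb. No count expected from the number of members per chromosome was computed, so clustering along chromosome 8 was not tested. Of 1575 windows of 1 Mb with a member, 89 had 5 or more, and 39 of those were on chromosome 8. One of the densest, chr8:127000001-128000000, held 10 members among 18 regions in all 6 lists, near Pard3 (a cell polarity scaffold) and Rbm34. Off chromosome 8, a window on chromosome 14 (chr14:36000001-37000000) near Ccser2 held 9 members among 12 regions.

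Within 100 kb of a gene end lay 2164 members, assigned to 1869 genes, 1626 of them with a single member. The rule's share among all assigned regions of the 6 lists was 15.4%. The most members at 1 gene was 4, reached by 10 genes: Isx, Csmd1, Cntnap4, Got2, Mon1b and Cdh5 on chromosome 8, Btbd3 on chromosome 2, Gpc5 and Ccser2 on chromosome 14, and Tph2 on chromosome 10. Their products include an intestinal homeobox factor (Isx), a contactin-associated neuronal protein (Cntnap4), endothelial VE-cadherin (Cdh5), a glypican (Gpc5) and the neuronal tryptophan hydroxylase (Tph2). None of the 4 members near Csmd1 and 1 of the 4 near Isx were in all 4 embryoid body libraries, against 3 of 4 near Cntnap4, Got2 and Gpc5. Regions in all 6 lists assigned to each gene numbered 8 (Isx, Cdh5), 7 (Csmd1, Btbd3, Gpc5), 6 (Cntnap4, Got2, Ccser2) or 5 (Mon1b, Tph2).

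The widest member, 3757 bp (chr8:43286896-43290652), lay 4415 bp from the end of Zfp42, the gene of the pluripotency marker REX1. Its signals were 1755 and 1029 in C9, 2226 and 1634 in H9, and 649 and 576 in WDR5WT, so that both WDR5WT values lay below all 4 p53 knockout values. A peak of parental replicate 1 lay 1576 bp away, and the nearest embryoid body peak in any list was 5101 bp away. Every ESC list, the excluded ones among them, and every embryoid body list had a peak at a Zfp42 gene end. The next widest members were inside Pdgfa (3254 bp), a growth factor gene, with peaks in all 4 embryoid body libraries, and near Tktl2 (3114 bp).

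Lists of genes were read against the 15.4% of assigned regions that were members, and against the same share at gene ends alone, 8.54%, and among assigned regions away from ends, 23.2%. A list's total share therefore also moves with how many of its regions lie at gene ends. Each list's regions in all 6 ESC lists had a median percentile that can be set beside 69.5 for all such regions. The lists were chosen with results of these data known and their counts have no test.

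Genes of pluripotency held few members. The naive and core pluripotency list had 6 members among 65 regions (9.23%), at Klf4, Dppa3, Klf5, Zfp42 and Tfcp2l1, and only the Klf4 region was at a gene end. Klf4 and Klf5 are Krüppel-like factors of the naive network and Dppa3 (Stella) protects methylation in the zygote. The Klf4 region had signals of 267 and 564 in C9, 424 and 722 in H9, and 819.97 and 820.2 in WDR5WT. A peak of parental replicate 1 lay 663 bp from it, and that list also had a peak at a Klf4 gene end. The Klf5 region, 2707 bp from a gene end, had signals from 387 to 546 and peaks in the double knockout embryoid bodies only. The formative and primed list had 2 of 19, both near Zic5.

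Among lineage genes, the primitive streak, mesoderm and endoderm list had 6 of 28 (21.4%), assigned to Hand2, Cxcr4, Foxa1, Msgn1, Hnf4a and Foxa2. Only the Hand2 and Cxcr4 regions were at a gene end, 2 of 8 such regions of the list, above the 8.54% background. The other 4 were among 20 regions away from ends, a share below the 23.2% background there. All 6 regions had a peak in all 4 embryoid body libraries. Hand2, a heart and limb factor, had the highest rank of the 3 nearest to a gene end, with signals of 769.8 and 839 in C9, 800.4 and 1865 in H9, and 1783 and 2382 in WDR5WT. At this promoter H9 replicate 2 and both WDR5WT libraries lay above the other 3. The neural and eye field list had 5 of 42 (11.9%; Hes5, Neurog2, Meis1, Map2, Ncam1), the trophectoderm list 1 of 19 (Cdx2) and the fibroblast list 1 of 13 (Col1a2).

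The p53 target list had 5 of 31 (16.1%), near the 15.4% background: at Phlda3, an AKT inhibitor, at Zmat3, an RNA-binding protein, and at Cop1 and Rchy1, ubiquitin ligases that act on p53. Only the Phlda3 region was at a gene end, 1 of 20 such regions of the list, and the other 4 were among 11 regions away from ends. Shisa5, shown above and described below, is not in the list and not in this count. The Phlda3 region had signals of 278 and 476 in C9, 337 and 644 in H9, and 409 and 644 in WDR5WT. The list of COMPASS, MLL and WDR5 partner genes had 2 of 28 (7.14%; Bod1l, Mycn), none at a gene end among 19. Polycomb and remodeller genes had 4 of 50 (Pcgf3, Sall1, Eed, Stag2).

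Several lists of genes used in every dividing cell had shares at gene ends below 8.54%. Cell cycle and DNA replication genes had 1 of 58 (1.72%, Bub1b), with 1 of 44 at gene ends (2.27%), and DNA repair genes 1 of 32 (Brca2), with 1 of 27 at gene ends. Histone genes had 0 of 12, with 0 of 9 at gene ends, and housekeeping genes 0 of 17, with 0 of 14. Translation factors had 3 of 37, with 1 of 28 at gene ends, and proteasome subunits 3 of 32, with 1 of 24. Cytosolic ribosomal protein genes had 3 of 53, with 0 of 40 at gene ends and 3 of 13 away from them (23.1%). Mitochondrial ribosomal protein genes went the other way at gene ends, with 5 of 49 in all and 4 of 38 there (10.5%). The median percentile of the cell cycle list's regions was 76.1, of DNA repair 76.9 and of cytosolic ribosomal proteins 67.4. Low shares at gene ends were not particular to these lists. Naive and core pluripotency had 1 of 25 there (4.0%) and Polycomb and remodellers 1 of 27 (3.70%). The FGF, MAPK and LIF list had 1 of 29 (3.45%), while Wnt lay above 8.54% with 2 of 12 (16.7%).

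Several tissue-restricted families had total shares above 15.4%, and are given here also by position. Collagen genes had 9 of 30 (30.0%), with 5 of 13 at gene ends (38.5%), among them Col5a2, Col24a1 and Col1a2, and 4 of 17 away from ends (23.5%, near the 23.2% background). Olfactory receptor genes had 47 of 161 (29.2%), but only 12 of these 161 regions were at a gene end. Of those 12, 5 were members (41.7%), and away from ends the share was 42 of 149 (28.2%). Potassium channel genes had 19 of 72 (26.4%, Kcnf1, Kcnh8 and Kcnn2 among them), with 6 of 32 at gene ends (18.8%) and 13 of 40 away from them (32.5%). Solute carrier genes had 58 of 268 (21.6%), with 24 of 140 at gene ends (17.1%) and 34 of 128 away from them (26.6%). The median percentiles of the regions of these 4 lists, in this order, were 63.2, 64.4, 68.8 and 68.6. Zinc finger protein genes had 36 of 358 (10.1%), with 12 of 207 at gene ends (5.80%) and 24 of 151 away from them (15.9%). Protocadherin genes had 6 of 37 (16.2%), with 1 of 13 at gene ends (7.69%) and 5 of 24 away from them (20.8%). Both of these protocadherin shares by position were below their backgrounds.

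Of the signalling lists, Wnt had 4 of 26 (Sfrp1, Apc, Fzd5, Wls). Nodal, BMP and TGF-beta had 3 of 35 (the BMP inhibitor Nog, Bmp7 and Tgfb2), and FGF, MAPK and LIF 3 of 59 (Spry1, Spry2, Jun). Notch, Hedgehog and Hippo had 4 of 52, none at a gene end, with 3 of these assigned to Hhip, the Hedgehog-binding inhibitor. Apoptosis regulators had 2 of 20, the adaptors Fadd and Tradd. Hox genes had 0 of 2.

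Most members had a peak in embryoid bodies too. A peak in all 4 embryoid body libraries was found for 2020 members (63.4%), against 77.1% of regions in all 6 lists and 80.2% of shared regions. None of the 4 had a peak for 298 members (9.35%, against 8.82%). Of all 52480 merged ESC regions, 48.7% had a peak in all 4 and 28.2% in none. Members at gene ends were in all 4 libraries in 91.8% of cases (shared, 96.8%), members inside genes in 65.1% (shared, 74.5%) and members between genes in 51.3% (shared, 58.0%). Within percentiles 40 to 50 the share in all 4 was 59.8% for members and 68.5% for shared regions.

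By library, 75.6% and 69.6% of members had a peak in the parental embryoid bodies and 80.5% and 87.3% in the double knockout ones. Both double knockout values lay above both parental values. The means were 83.9 ± 4.81% and 72.6 ± 4.24% (SD, n = 2 each), a difference of 11.3 percentage points, with p = 0.333 in an exact permutation test (two-sided), the smallest that 2 libraries against 2 can give. Shared regions differed by 3.54 points in the same direction (87.8% against 84.3%); whether the differences of members and shared regions differ was not tested. The double knockout lists held 78106 and 93646 peaks and the parental lists 90436 and 75673, and without chromosome 8 the members' difference was 9.94 points.

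**Figure D5:**
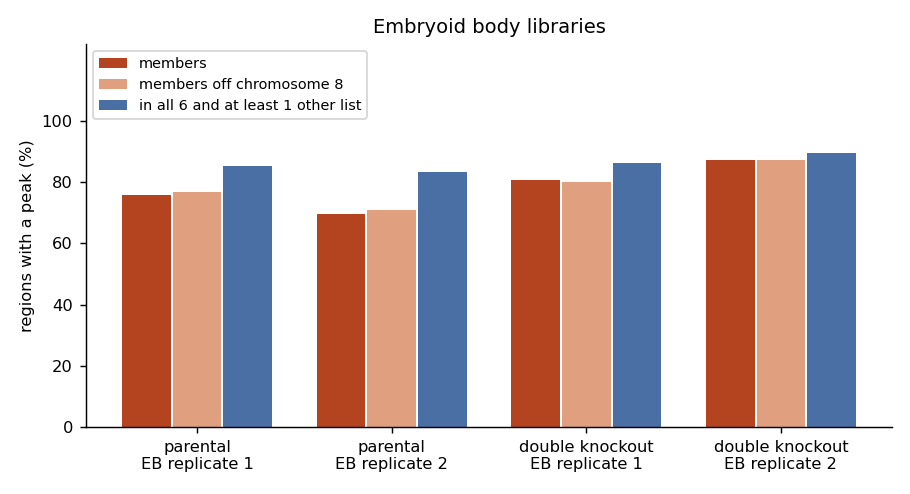
Percentage of regions with a peak in each embryoid body library, for members, members off chromosome 8 and shared regions. Member bars are 75.6% and 69.6% in the parental libraries and 80.5% and 87.3% in the double knockout libraries.

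A peak in both double knockout and neither parental embryoid body library was found at 167 members (5.24%), against 2.66% of regions in all 6 lists. The opposite pattern was found at 11 members (0.345%), against 0.35%. Of the 167, a single region was at a gene end, the median distance to one was 165 kb, and 40 (24.0%) were on chromosome 8; off chromosome 8 there were 127 among 2742 members (4.63%), against 2.36% of the regions in all 6 lists there. The parental embryoid body lists had 5.29% and 5.37% of their peaks on chromosome 8 and the double knockout lists 7.56% and 7.53%; the part of this in the count was not tested. Among the 692 remaining members (21.7%), other combinations of libraries had a peak.

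The strongest double-knockout-only region was on chromosome 8 (chr8:97427381-97429368), 1539 kb from the nearest gene end, that of Got2. It had signals of 1283 and 1781 in C9, 328 and 1379.6 in H9, and 692 and 595 in WDR5WT, and folds over local background of 3.96 and 3.68 in the double knockout embryoid bodies. The nearest parental peaks were 9584 and 9598 bp away. The next strongest lay 6553 bp from Olfr1310, an olfactory receptor gene. The others of the 5 highest-ranked lay far from their nearest gene ends, at 311 kb (Gm12695), 1631 kb (Aga) and 755 kb (4931408C20Rik).

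Among the 11 parental-only members, Topbp1, a scaffold of the replication checkpoint, stood at a CpG-rich promoter. Its signals were 482 and 245 in C9, 359 and 625 in H9, and 386 and 791 in WDR5WT. Folds were 5.88 and 5.38 in the parental embryoid bodies, and the nearest double knockout peaks were 45279 and 74422 bp away. In ESCs the nearest peak of an excluded list lay 59530 bp away. At Nr2f1 a second region, 97 bp from the gene end, had parental folds of 1.96 and 2.03, with double knockout peaks 1841 and 486 bp away. Tmem121 and Hmgn3 were nearest to others of the highest-ranked.

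Of members with no embryoid body peak, 18 were at gene ends. The region at Slc22a29 (an organic anion transporter family gene) had the most even signals of the 5 highest-ranked, at 1105 and 1088 in C9, 1099 and 1056 in H9, and 1566 and 1169 in WDR5WT, and the nearest embryoid body peak lay 78762 bp away. At the CpG-rich Nuak1 promoter, of an AMPK-related kinase, signals were 236 and 547 in C9, 554 and 448 in H9, and 846 and 1309 in WDR5WT, both WDR5WT values above the others, and the nearest embryoid body peak in any list lay 21409 bp away. Shisa5, a membrane protein induced by p53, had signals of 713 and 596, 468 and 642, and 649.9 and 629 in the same order, with the nearest embryoid body peak at 6017 bp. The others of the 5 highest-ranked besides Zfp42 and Slc22a29 were nearest to Dpp4, the gene of a serine peptidase, C9orf72 and Pcdh17. The Pcdh17 region lay 1686 kb from the gene end and the C9orf72 region 31.3 kb. At Dpp4 the nearest peaks of the embryoid body lists were 608 to 2107 bp away.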

How the data were processed

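Submitters' processing notes name Bowtie2 2.3.5, SAMtools, Genrich 0.6, MACS2 2.1.2, DESeq2 and build mm10, without the role of each. The deposited ESC lists give per peak a score, a signal of unstated scaling, a −log10 p-value and a summit; the q column is -1 throughout, and the caller is not given in the sources used here. The deposited embryoid body lists give a score, a ratio (fold enrichment over local background), −log10 p and −log10 q, and per the file names the authors removed blacklisted regions. Transposition ran at 37C for 30 min, per the labels. Peaks were called per library; no counts are held, so depth is unknown and no interval from depth is given.

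Peaks were merged and overlapped (minimum 1 bp) in Python 3.11.15 with pandas 2.3.3, and the rule was tested on simulated lists. Regions were assigned to the nearest end of 21887 protein-coding genes (RefSeq, GRCm38.p6) within 100 kb. Of the 29 gene lists, 19 were given by name (627 genes, all matched) and 10 by name pattern. Values per library were tested by exact permutation, two-sided (itertools and numpy 2.4.6); binomial intervals came from scipy 1.17.1. Named regions follow a rule: the 10 genes with most members, the 15 highest-ranked and 3 widest members, up to 3 genes per list, the 5 highest-ranked per embryoid body pattern and the strongest promoters per pattern; a few regions that the rule names are not reported here. The members and lists were chosen with earlier results of these data known. Alternatives varied overlap, merging, thresholds, list length, gene window, chromosomes and libraries.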

Additional observations from a re-analysis of the deposited data

How the results depend on the processing

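With 500 bp summit windows, merging across 200 bp, autosomes only and omission of chromosome 8, the number of members stayed within 1.5 times 3188. Each share stayed within its 95% exact interval there, and the double knockout minus parental difference stayed positive. Requiring 50% overlap of ESC peaks also gave 3188, but could not have changed it, because every ESC peak lies wholly inside its merged region. The 50% requirement for embryoid body peaks, which could change the result, gave 63.2% in all 4 and a difference of 11.2 points. In the upper 50% of each ESC list by p there were 1566 members, 33.0% at a gene end and 79.9% in all 4 embryoid body libraries. At equal list length there were 138, 83.3% at a gene end and 98.6% in all 4, and the double knockout minus parental difference was 0.0. With the 6 required lists cut to the length of parental replicate 1, chosen after seeing the data, there were 1756, 24.6% at a gene end and 70.5% in all 4. Gene windows of 500 and 2500 bp gave 18.8% and 24.0%. The upper 50% of each embryoid body list by p gave 43.6% in all 4.

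Leaving out 1 library at a time, the number of members ran from 3189 to 6651. The share at a gene end ran from 18.6% to 26.5%, and on chromosome 8 from 8.74% to 16.0%. With 1 ESC library left out, the share in all 4 embryoid body libraries ran from 60.2% to 67.7%. With 1 embryoid body library left out, the share in all remaining ones was 63.7% to 70.7%, a share that cannot fall when a library is dropped. The double knockout minus parental difference ran from 7.89 to 14.7 points. The rank difference of WDR5WT ran from -3.99 to 0.166, changing sign (0.166) without C9 replicate 2, and that of C9 minus H9 from -6.22 to 6.25, with -6.22 without C9 replicate 2 and -0.0162 without H9 replicate 1; by the mean over regions it was -0.371. The cause of these changes was not tested.

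Libraries shared a replicate number and no stated source, and their deviations across members correlated at 0.0296 between embryoid body groups. With the replicate block the embryoid body difference stayed 11.3 points (exact permutation p = 0.5), and the rank differences -1.91 (p = 0.556) and 0.0146 (p = 1.0).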
